A study of Mus musculus with 9 samples.

Results

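This account concerns 809 bidirectionally transcribed regions of mouse embryonic stem cells whose nascent transcription was lower after 15 min of Firre induction and still lower after 30 min. They were selected from PRO-seq read counts by 4 conditions on CPM (a region's count scaled to a library total of 1e+06 over all regions). A region needed a mean count of at least 20 over the 9 libraries, and a CPM below every 0 min library in every 15 and 30 min library. Its mean CPM at both later times had to be at most 0.7 times the 0 min mean, and its 30 min mean below 1.4 times its 15 min mean. Of 174289 regions in the series 32891 had the required count, and the 809 are 2.46% of those.

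All 9 libraries came from one genotype, a Firre knockout that carries an inducible Firre transgene, in mouse embryonic stem cells labelled mESC. There were 3 libraries with no doxycycline (0 min), 3 after 15 min and 3 after 30 min of doxycycline at 1 ng/μL, so the controls also lack the native gene and carry the transgene. The labels give neither the site nor the promoter of the transgene, nor whether the line is 1 clone, and no library received doxycycline without the transgene, so the drug and the transgene cannot be told apart. Nuclei were mixed with 1% Drosophila S2 nuclei, whose reads were not analysed here, so every value is relative to the other mouse regions.

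PRO-seq is a nuclear run-on in which engaged RNA polymerase adds biotin-labelled nucleotides, so that reads mark where polymerase is transcribing rather than how much RNA has accumulated. Active promoters and enhancers commonly start transcription on both strands from a shared nucleosome-free stretch, and the resulting pair of divergent nascent transcripts is what defines a bidirectional region. Firre is a long non-coding RNA that is retained in the nucleus and transcribed from the X chromosome, and it is known for contacts with loci on other chromosomes.

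Library totals over all regions were 3813365 to 5518443 reads at 0 min, 4239213 to 5980366 at 15 min and 4279835 to 5398120 at 30 min. The 8 regions of Firre summed to 3.38 ± 1.38 CPM at 0 min, 293 ± 38.8 at 15 min and 784 ± 17.3 at 30 min (SD, n = 3 each), which checks the labels. Of 10 stem cell markers 7 had a region at a gene end, and their sum stayed between 1080 and 1205 CPM over the 9 libraries, with Nanog the highest. Of 10 feeder fibroblast markers 3 had a region, summing to 0.927 to 3.51 CPM, and of the 3 trophectoderm markers Cdx2, Elf5 and Gata3 only Gata3 had one, at 0 in every 0 and 15 min library. The sums of short marker sets of primitive endoderm, mesoderm and neuroectoderm lay between 2.22 and 14.5 CPM. Longer gene lists of such lineages held genes at higher levels, with 0 min means of 35.5 CPM for Tead4 (trophectoderm), 39.8 CPM for Tubb3 (neuroectoderm) and 7.20 CPM for Col4a1 (primitive endoderm). Whether libraries of one time stem from different cultures is not given in the labels, and their spread may then be technical.

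Because the position of a region says what it is likely to initiate, promoters are shown first. Of the 790 members on chromosomes that the RefSeq promoter table covers, 338 had their centre within 1 kb of a start site in it. The 6 sequences below are the RefSeq promoters (GRCm38.p6, the assembly of mm10) of 4 of the 12 most reduced members and of 2 members from the hypoxia and BMP lists. Each runs 5′ to 3′ on the gene's strand from 250 bases before the start site to 50 after it. Capitals mark matches, on either strand, to any of the 10 motifs searched, which are spelled out with the promoter results. They are Megf6 (chr4:154170463-154170762, plus strand), Celsr2 (chr3:108415530-108415829, minus), Dnaaf3 (chr7:4532416-4532715, minus), Lingo1 (chr9:56796261-56796560, minus), Bnip3 (chr7:138909457-138909756, minus) and Smad6 (chr9:64022010-64022309, minus).
Megf6: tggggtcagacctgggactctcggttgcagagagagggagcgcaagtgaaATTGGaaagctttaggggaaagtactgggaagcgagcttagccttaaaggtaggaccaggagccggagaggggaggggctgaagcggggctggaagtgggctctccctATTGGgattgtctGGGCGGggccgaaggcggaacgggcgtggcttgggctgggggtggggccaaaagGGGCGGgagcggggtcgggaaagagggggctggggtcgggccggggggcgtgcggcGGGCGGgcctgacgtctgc
Celsr2: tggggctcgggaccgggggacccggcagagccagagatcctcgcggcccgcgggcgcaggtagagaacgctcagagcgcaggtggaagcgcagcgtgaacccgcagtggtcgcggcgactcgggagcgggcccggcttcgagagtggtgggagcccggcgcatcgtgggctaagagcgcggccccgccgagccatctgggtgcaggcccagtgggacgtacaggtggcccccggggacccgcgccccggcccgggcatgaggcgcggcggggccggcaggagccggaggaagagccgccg
Dnaaf3: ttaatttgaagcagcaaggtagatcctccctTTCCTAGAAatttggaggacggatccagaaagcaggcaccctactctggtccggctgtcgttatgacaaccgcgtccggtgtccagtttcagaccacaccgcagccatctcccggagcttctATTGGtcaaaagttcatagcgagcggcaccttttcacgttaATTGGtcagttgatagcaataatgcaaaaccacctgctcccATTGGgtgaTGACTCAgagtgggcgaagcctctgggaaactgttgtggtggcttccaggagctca
Lingo1: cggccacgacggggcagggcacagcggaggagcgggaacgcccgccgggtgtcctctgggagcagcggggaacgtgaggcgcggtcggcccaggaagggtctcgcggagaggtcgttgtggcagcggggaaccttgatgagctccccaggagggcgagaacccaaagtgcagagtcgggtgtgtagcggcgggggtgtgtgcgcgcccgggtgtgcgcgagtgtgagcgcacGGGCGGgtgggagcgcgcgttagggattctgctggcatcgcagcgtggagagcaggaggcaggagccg
Bnip3: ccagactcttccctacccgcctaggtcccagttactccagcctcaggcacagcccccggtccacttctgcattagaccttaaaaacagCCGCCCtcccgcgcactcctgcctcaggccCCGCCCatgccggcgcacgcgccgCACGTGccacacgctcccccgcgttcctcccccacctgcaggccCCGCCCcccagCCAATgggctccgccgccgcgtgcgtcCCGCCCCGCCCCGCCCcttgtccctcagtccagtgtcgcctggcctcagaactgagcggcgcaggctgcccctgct
Smad6: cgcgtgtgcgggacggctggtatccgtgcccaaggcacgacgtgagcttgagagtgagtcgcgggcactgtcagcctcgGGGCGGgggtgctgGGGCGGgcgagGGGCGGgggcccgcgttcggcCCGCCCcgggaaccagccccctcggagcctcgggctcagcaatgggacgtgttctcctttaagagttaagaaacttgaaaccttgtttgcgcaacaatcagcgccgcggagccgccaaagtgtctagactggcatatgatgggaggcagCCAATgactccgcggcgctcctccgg

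The Bnip3 promoter held 6 matches to the GC box, 1 CCAAT box and 1 E-box, and the Smad6 promoter held 4 GC boxes and 1 CCAAT box. The Megf6 promoter held 3 GC boxes and 2 CCAAT boxes. Dnaaf3, with the lowest G+C share of the 6 at 51.3%, had no GC box but 3 CCAAT boxes, 1 AP-1 site and 1 STAT site. Celsr2, the richest in G+C at 76.3%, had no match to any of the 10 motifs, which says only that these letters are not in this window.

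The values that chose the members are given as a description. The 15 min mean was a median of 0.569 times the 0 min mean (range 0.314 to 0.699), and the 30 min mean a median of 0.610 times (0.315 to 0.7). Over all 32891 regions with the required count these medians were 0.970 and 0.976. Both ratios were at most 0.5 in 49 members (6.06%), while 185 reached that at 15 min and 92 at 30 min. The edgeR quasi-likelihood test, adjusted over all 54299 regions tested, called 473 of the 809 lower at 15 min and 162 at 30 min, where 3.96% and 0.497% of all tested regions were called lower. These calls use the values that chose the members and carry no further weight (4.29% and 1.24% of all tested regions were called higher). The condition that the later libraries lie below every 0 min library was met by 7.19% of the 32891 regions.

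Most members were of low to moderate signal. Their 0 min means had a median of 12.5 CPM, with 307 under 10 CPM and 43 above 50 CPM, and their mean counts had a median of 44.8 reads. Between 15 and 30 min the members' means moved up slightly, within the limit of 1.4 times that the conditions set on this step. The means of both times also chose the members, so the step is a description. At 30 against 15 min edgeR called 0 of the 809 higher and 0 lower, beside 0.214% and 0.490% of all tested regions. The 30 min mean was a median of 1.08 times the 15 min mean. It was the lower of the pair in 253 members (31.3%), against 46.9% of all regions with the required count, which were not selected on these means. It lay within 10% of the 15 min mean in 354 members. All 3 libraries of 30 min lay above all 3 of 15 min in 67 members and below them in 21.

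Library by library, the summed CPM of the 809 regions was 16630, 14362 and 15149 at 0 min, 8509, 8295 and 9569 at 15 min, and 9584, 9886 and 8932 at 30 min. The 6 later libraries were thus all well under the 3 controls, and the 15 and 30 min libraries overlapped. Individual libraries did not count equally. The first 0 min library was the highest control in 448 members (55.4%), and the third 15 min library was the highest of its time in 417 (51.5%). In that library the members had a median ratio of 0.609 to the 0 min mean, against 0.543 and 0.537 in the other 15 min libraries. Without the second 0 min library the same conditions chose 1694 regions, 742 of them among the 809, and without any other single library they chose 797 to 1195. Similar counts did not mean the same regions. Without the first 0 min library 844 were chosen, but only 579 of the 809 were among them, the fewest for any library. Without the third 30 min library 797 were chosen, with 650 of the 809.

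**Figure D1:**
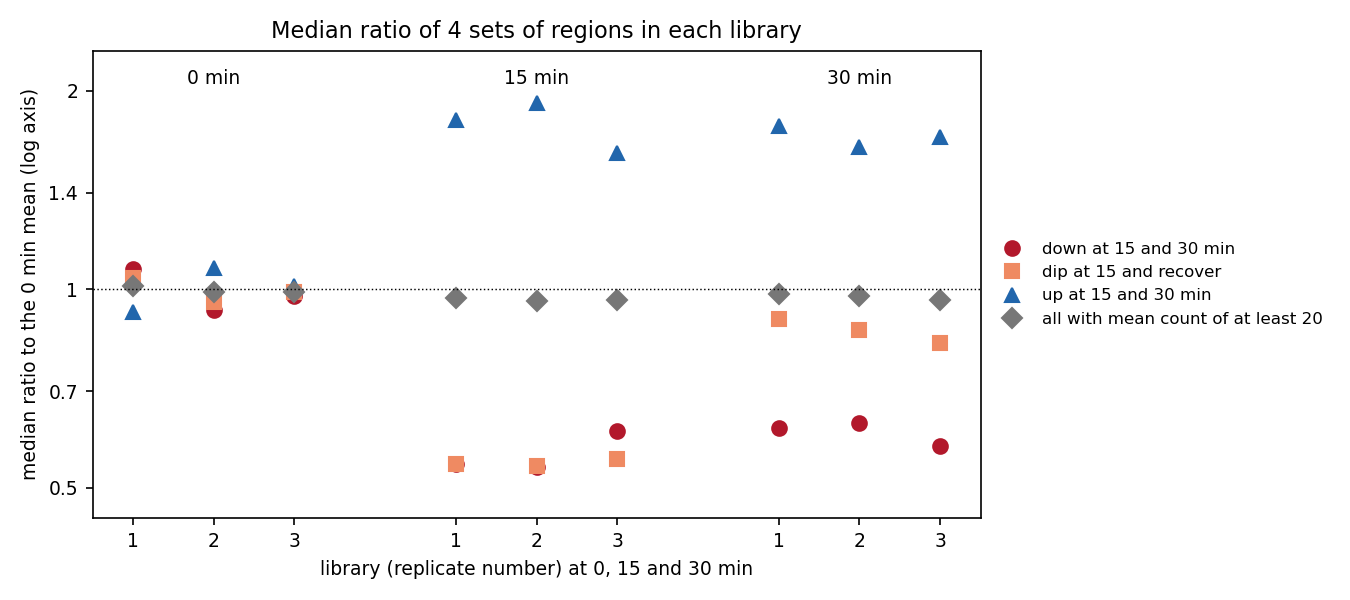
Median over the regions of a set of CPM divided by the mean of the 0 min libraries (log axis), in each of the 9 libraries at 0, 15 and 30 min, for the regions down at both times, 2 comparison sets and all regions with a mean count of at least 20. The regions down at both times lie between 0.537 and 0.627 in all 6 later libraries, while those that dip and recover return to between 0.830 and 0.901 at 30 min.

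The 12 members with the lowest mean of their 2 ratios included promoters, regions just past gene ends and regions within genes. The lowest was at the start of Megf6, which encodes a protein with multiple EGF-like domains (chr4:154170491-154171090, centre 77 bp downstream of the start site). It had 11.2, 9.04 and 6.82 CPM at 0 min, 2.17, 2.09 and 4.25 CPM at 15 min, and 2.96, 5.01 and 1.87 CPM at 30 min. Every later library was under every control, and the 15 and 30 min libraries overlapped.

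Bhlhe40 encodes a basic helix-loop-helix repressor of the circadian clock that is also induced by low oxygen, and 2 of its regions were members. The one 684 bp from the gene's end (chr6:108667310-108667909) had 30.4, 10.4 and 13.9 CPM at 0 min, 6.35, 7.22 and 6.61 CPM at 15 min, and 7.22, 7.60 and 5.37 CPM at 30 min. The first control was far above the other two and weighs on the ratio, although all 6 later libraries lay below the lowest control. The region inside the gene (chr6:108664777-108665376) had 29.0, 15.8 and 12.8 CPM at 0 min, 7.52, 8.74 and 9.67 CPM at 15 min, and 9.26, 7.41 and 8.65 CPM at 30 min. The same control library was again the highest.

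Celsr2 encodes an atypical cadherin of planar cell polarity, and its start site region (chr3:108415201-108415800) had 8.88, 6.10 and 9.70 CPM at 0 min, 2.84, 2.66 and 3.77 CPM at 15 min, and 2.41, 3.15 and 3.97 CPM at 30 min. Its window overlaps another, so some reads may be counted in both. Lingo1 encodes a leucine-rich repeat membrane protein of neurons, and its start site region (chr9:56795860-56796459) had 9.06, 12.9 and 7.08 CPM at 0 min, 5.18, 3.99 and 1.89 CPM at 15 min, and 3.89, 2.78 and 5.61 CPM at 30 min. Dnaaf3 encodes an assembly factor for axonemal dynein, and its start site region (chr7:4532110-4532709) had 5.80, 9.04 and 8.65 CPM at 0 min, 3.68, 1.71 and 3.30 CPM at 15 min, and 3.52, 3.89 and 2.57 CPM at 30 min. In these 3 genes the order of the 15 and 30 min libraries was mixed, and at under 10 CPM per mean their spread is wide.

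Dlgap3, a scaffold protein of the postsynaptic density, had a member 333 bp from a gene end (chr4:127168339-127168938) and another nearby inside the gene (chr4:127169459-127170058). The window of the first overlaps another window. The first had 11.1, 5.65 and 5.24 CPM at 0 min, 2.51, 2.66 and 2.12 CPM at 15 min, and 3.52, 3.71 and 2.57 CPM at 30 min. The second had 8.88, 7.0 and 14.7 CPM at 0 min, 2.01, 2.85 and 6.84 CPM at 15 min, and 2.78, 3.89 and 6.54 CPM at 30 min. The third library was highest at every time in the second region and lowest at every time in the first.

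Nfil3 encodes a basic leucine zipper repressor that also acts on clock genes, and its member lay 151 bp downstream of a start site (chr13:52980589-52981188). It had 14.7, 7.68 and 10.5 CPM at 0 min, 4.51, 2.85 and 4.95 CPM at 15 min, and 3.52, 6.67 and 3.97 CPM at 30 min. Frmd5, a FERM domain protein, had a member 930 bp from an annotated end (chr2:121807718-121808317) with 5.80, 7.0 and 8.39 CPM at 0 min, 2.51, 3.23 and 2.12 CPM at 15 min, and 4.26, 3.15 and 1.17 CPM at 30 min. The long non-coding gene Gm31342 had a member 524 bp upstream of its start site (chr15:67038770-67039369) with 9.97, 9.26 and 6.56 CPM at 0 min, 4.01, 2.85 and 2.12 CPM at 15 min, and 3.15, 3.52 and 4.21 CPM at 30 min. The later libraries of all 3 regions overlapped each other and stayed under their controls.

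The Uba7 region lay inside the gene. Uba7 encodes an activating enzyme for a ubiquitin-like modifier, and its region (chr9:107982514-107983113) had 8.52, 7.0 and 5.77 CPM at 0 min, 3.01, 2.28 and 3.07 CPM at 15 min, and 2.59, 3.71 and 2.80 CPM at 30 min. The 15 and 30 min libraries of Uba7 overlapped each other and all lay below the 0 min libraries.

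**Figure D2:**
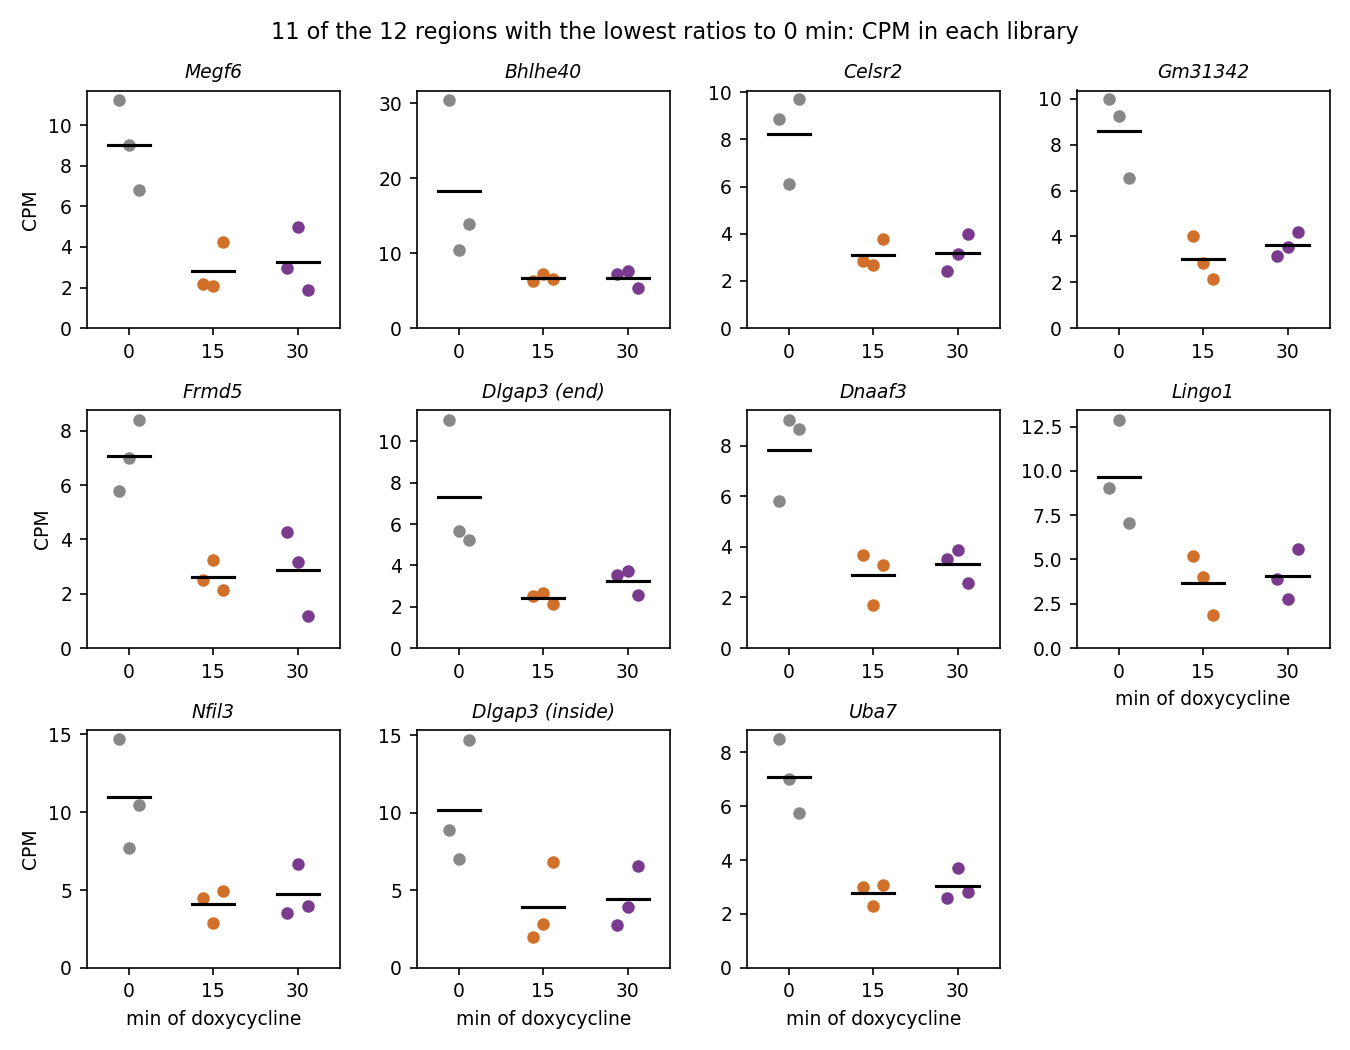
CPM in each library (points, left to right replicates 1 to 3) and the mean of 3 libraries (bars) at 0, 15 and 30 min of doxycycline for 11 of the 12 members with the lowest ratios, each panel on its own axis from 0. Every point at 15 and 30 min lies below every point at 0 min, as the selection requires, and Bhlhe40 has 1 control at 30.4 CPM above the others.

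Of all members Repin1, a zinc finger protein, had the highest control signal (chr6:48596567-48597166, inside the gene), with 195, 195 and 227 CPM at 0 min, 109, 126 and 121 CPM at 15 min, and 137, 149 and 120 CPM at 30 min. Fgf11, an intracellular fibroblast growth factor homologue, followed with a region at a gene end (chr11:69802843-69803442) that had 204, 160 and 195 CPM at 0 min, 95, 90.3 and 122 CPM at 15 min, and 119, 122.5 and 111 CPM at 30 min. In both, the 15 and 30 min libraries overlapped and every later library stood clear of the controls. Zfp775, a zinc finger gene close to Repin1, had a member 796 bp from its end (chr6:48620453-48621052) with 171, 147 and 167 CPM at 0 min, 89.1, 93.1 and 128 CPM at 15 min, and 115, 111 and 112 CPM at 30 min. The third 15 min library was the highest of its time in Fgf11 and Zfp775.

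Socs3, the feedback inhibitor of cytokine signalling that LIF and STAT3 induce in stem cells, had its start site region among these (chr11:117969034-117969633). It had 140, 101 and 122 CPM at 0 min, 73.1, 69.6 and 94.1 CPM at 15 min, and 78.4, 89.3 and 72.4 CPM at 30 min. Ehmt2 encodes a histone lysine methyltransferase, and its start site region (chr17:34898327-34898926) had 109, 97.4 and 107 CPM at 0 min, 65.5, 63.3 and 82.6 CPM at 15 min, and 76.7, 76.2 and 64.0 CPM at 30 min. Zbtb7a encodes a zinc finger repressor, and its region inside the gene (chr10:81137652-81138251) had 100, 76.1 and 78.7 CPM at 0 min, 43.6, 39.3 and 53.5 CPM at 15 min, and 61.1, 63.4 and 48.1 CPM at 30 min. For Socs3 and Ehmt2 the later times were nearly level, and for Zbtb7a the 30 min mean was 1.3 times the 15 min mean.

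Ubald2 (chr11:116436815-116437414) had 96.0, 121 and 89.7 CPM at 0 min, 56.0, 63.5 and 63.9 CPM at 15 min, and 61.5, 63.8 and 64.7 CPM at 30 min. Smtnl2, a smoothelin-like gene (chr11:72411374-72411973, start site), had 125, 76.6 and 104 CPM at 0 min, 55.2, 48.3 and 73.1 CPM at 15 min, and 62.6, 71.6 and 69.6 CPM at 30 min. The 30 min libraries were tight in both, and the controls of Smtnl2 were spread widely. Mamstr, a coactivator of muscle transcription (chr7:45643562-45644161, inside the gene), had 87.5, 76.4 and 74.7 CPM at 0 min, 43.8, 48.6 and 44.3 CPM at 15 min, and 57.2, 55.1 and 53 CPM at 30 min. Of the 12 regions with the highest control signal it is the one whose 30 min libraries all lay above its 15 min libraries.

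Grasp, a scaffold for glutamate receptors (chr15:101232497-101233096), had 86.1, 83.1 and 81.6 CPM at 0 min, 52.3, 57.6 and 55.0 CPM at 15 min, and 51.3, 58.9 and 54.7 CPM at 30 min. Its means of 55.0 ± 2.62 CPM at 15 min and 55.0 ± 3.83 CPM at 30 min were the same to 3 digits (SD, n = 3 each). The long non-coding gene 1810019D21Rik (chr8:106137926-106138525) had 86.6, 91.9 and 103 CPM at 0 min, 58.0, 68.4 and 55.2 CPM at 15 min, and 62.1, 67.8 and 58.9 CPM at 30 min. The region between Lmntd2 and Rassf7 (chr7:141215371-141215970) had 96.2, 74.5 and 80.5 CPM at 0 min, 57.5, 49.8 and 60.9 CPM at 15 min, and 58.9, 57.3 and 53.3 CPM at 30 min. The strand counted is not stated, so reads of either gene cannot be told apart there.

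Among signalling genes, members lay at both pathway components and feedback targets. Stat3, the transcription factor downstream of LIF, had a member 591 bp downstream of its start site (chr11:100938650-100939249), which averaged 11.0 ± 2.01 CPM at 0 min, 4.89 ± 0.843 at 15 min and 6.36 ± 0.280 at 30 min (SD, n = 3 each, as for all means that follow). Another region at an end of Stat3 was not a member, with a log2 change of -0.32 at 15 min (SE 0.16, edgeR adjusted p = 0.24). Smad6, an inhibitory Smad that BMP signalling induces, had 2 members near its start site. The nearer one, 73 bp from the gene end (chr9:64021859-64022458), averaged 17.9 ± 1.86, 9.54 ± 2.80 and 9.85 ± 1.1 CPM at 0, 15 and 30 min, and the farther one, 971 bp from it, averaged 8.54 ± 2.19, 4.06 ± 1.49 and 3.87 ± 0.342 CPM.

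In the Notch pathway, Lfng, a glycosyltransferase that modifies the receptor, had a member 195 bp downstream of its start site (chr5:140607237-140607836). Its window overlaps another, and it had 12.1 ± 0.643, 6.78 ± 1.71 and 7.19 ± 2.06 CPM at 0, 15 and 30 min. Nrarp, a Notch target that limits the pathway, had a member 581 bp downstream of its start site (chr2:25181040-25181639) with 40.8 ± 1.85, 26.1 ± 7.47 and 27.0 ± 4.91 CPM. The third 15 min library of Nrarp, at 34.7 CPM, lay well above the other two. Plxnb1, a semaphorin receptor, averaged 50.3 ± 12.2, 32.4 ± 6.85 and 33.5 ± 3.75 CPM at 194 bp from its start site (chr9:109095331-109095930), and the secreted semaphorin Sema3f averaged 9.21 ± 2.07, 4.91 ± 2.46 and 5.15 ± 1.22 CPM at 959 bp from a gene end (chr9:107709217-107709816). Another region at an end of each gene was not a member. At 15 min its log2 change was -0.19 for Plxnb1 (SE 0.18, edgeR adjusted p = 0.57) and -0.12 for Sema3f (SE 0.26, edgeR adjusted p = 0.82). The ligand gene Gdf15, induced in cellular stress, had a member 537 bp from a gene end (chr8:70629631-70630230) with 66.3 ± 11.0, 41.9 ± 0.732 and 45 ± 0.604 CPM, so its later libraries were much tighter than its controls.

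Genes of the cytoskeleton and the nuclear lamina gave Lmna, Plec, Myh14, Tagln2 and Kif21b. Lmna, which encodes lamins A and C, had a low 15 min ratio of 0.385 (chr3:88506034-88506633, inside the gene), with 37.1, 37.7 and 34.6 CPM at 0 min, 13.9, 11.8 and 16.5 CPM at 15 min, and 16.7, 23.2 and 16.6 CPM at 30 min. The region at an end of Lmna was not a member, since its 30 min mean of 32.9 ± 1.20 CPM was above 0.7 times its 0 min mean of 40.5 ± 7.23 CPM. Myh14, a non-muscle myosin heavy chain (chr7:44609294-44609893), had the lowest ratio at 30 min of all members, with 9.42, 9.94 and 11.0 CPM at 0 min, 5.52, 7.60 and 4.72 CPM at 15 min, and 2.96, 5.19 and 1.4 CPM at 30 min. Its window overlaps another, and its 15 and 30 min libraries overlapped in 1 library of each time. The actin-binding gene Tagln2 averaged 19.9 ± 6.10, 9.75 ± 3.42 and 9.83 ± 0.727 CPM at 0, 15 and 30 min, the kinesin Kif21b 28.7 ± 2.16, 17.5 ± 1.63 and 18.4 ± 0.795 CPM, and plectin (Plec) 15.9 ± 2.09, 9.86 ± 2.29 and 11.0 ± 1.09 CPM. A region at an end of Tagln2 was not a member, with a log2 change of -0.29 at 15 min (SE 0.22, edgeR adjusted p = 0.46). At an end of Kif21b a non-member was not called at 15 min (edgeR adjusted p = 0.24). It was lower at 30 min (log2 change -1.73, SE 0.43, edgeR adjusted p = 0.036), at low means of 6.06 CPM at 0 min and 1.83 CPM at 30 min. That call was lost without any 1 of 5 of the 9 libraries.

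Other members lay in hypoxia, lineage and chromatin genes. Bnip3, a mitophagy receptor induced by low oxygen, averaged 14.7 ± 3.05, 7.11 ± 0.548 and 8.05 ± 1.39 CPM at 0, 15 and 30 min at 278 bp downstream of the start site (chr7:138908929-138909528), in a window that overlaps another. Another region at an end of Bnip3 was not a member but fell by 0.93 on the log2 scale at 15 min (SE 0.20, edgeR adjusted p = 0.0036). Ankrd37, a target of the hypoxia-inducible factor, averaged 14.6 ± 1.72, 7.89 ± 1.4 and 8.08 ± 1.89 CPM (chr8:45996241-45996840). A stronger region at an end of Ankrd37 was not a member, with 44.6 ± 6.43, 42.8 ± 0.693 and 35.4 ± 4.76 CPM. Its log2 change was -0.04 at 15 min (SE 0.14, edgeR adjusted p = 0.91). Cbx2, a chromobox subunit of a Polycomb complex, averaged 60.5 ± 15.7, 29.8 ± 9.33 and 35.7 ± 4.47 CPM 10 bp from a gene end (chr11:119022710-119023309). Dnmt3a, a de novo DNA methyltransferase, averaged 11.2 ± 0.741, 6.70 ± 2.21 and 7.09 ± 0.466 CPM inside the gene (chr12:3808756-3809355).

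Sox1, a neuroectoderm transcription factor, had a member inside the annotated gene (chr8:12397198-12397797) with 14.1, 7.68 and 11.8 CPM at 0 min, 4.35, 5.70 and 4.95 CPM at 15 min, and 3.89, 5.93 and 5.61 CPM at 30 min. Ascl2, a trophoblast transcription factor, had one (chr7:142967532-142968131) with 16.5, 11.1 and 11.8 CPM at 0 min, 5.18, 4.94 and 10.1 CPM at 15 min, and 7.04, 8.53 and 9.58 CPM at 30 min. The third 15 min library of Ascl2 was close to its lowest control. Regions at an end of Sox1 and of Ascl2 were not members. Their log2 changes at 15 min were -0.63 for Sox1 (SE 0.30, edgeR adjusted p = 0.20) and -1.57 for Ascl2 (SE 0.38, edgeR adjusted p = 0.010). Fewer transcribing cells and less transcription per cell cannot be told apart in such bulk libraries.

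Arhgap23, a GTPase-activating protein gene on chromosome 11, was the single gene with 3 members. The region at chr11:97415208-97415807 had 24.1, 18.8 and 19.4 CPM at 0 min, 9.70, 9.88 and 11.3 CPM at 15 min, and 12.6, 14.1 and 14.7 CPM at 30 min, with all 30 min libraries above all 15 min libraries. The region at chr11:97450129-97450728 had 34.8, 45.9 and 40.6 CPM at 0 min, 24.6, 26.8 and 26.7 CPM at 15 min, and 26.3, 22.1 and 25 CPM at 30 min. The region at chr11:97452905-97453504 had 24.3, 25.3 and 24.9 CPM at 0 min, 17.1, 15.8 and 14.6 CPM at 15 min, and 12.4, 15.2 and 15.2 CPM at 30 min. The 3 regions of this gene thus differed in their course after 15 min while all stayed under their controls.

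At the limit of 0.7 the selection separates regions that hardly differ. The members just inside it were near Kank3, with a 15 min ratio of 0.699, and in C1qtnf6 and Tcte1, each with a 30 min ratio that rounds to 0.7. Just outside it were regions at Dnajc22 (0.7 at 15 min), Socs1 (0.7 at 30 min) and Fig4 (0.701 at 30 min).

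Since the same values chose the members, the conditions were also applied to the libraries of 2 replicate numbers and read in the libraries of the number left out, which took no part in the choice. The required count was taken anew over the libraries that chose, and regions with no read in the left-out 0 min library were dropped. That gave 31455, 32667 and 34573 regions with the required count on leaving out number 1, 2 and 3. Of these the conditions chose 987, 1847 and 1297 regions. In the left-out libraries their median ratio to 0 min was 0.627, 0.678 and 0.759 at 15 min, against 0.964, 0.966 and 0.981 over all regions with the required count. At 30 min it was 0.746, 0.862 and 0.734, against 0.978, 0.998 and 0.979. The mean of the 3 medians was 0.688 ± 0.066 for chosen regions and 0.970 ± 0.009 for all such regions at 15 min, and 0.780 ± 0.071 and 0.985 ± 0.011 at 30 min (SD, n = 3).

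The medians of chosen regions were thus below those of all such regions in each left-out number, and closer to 1 than the medians of the members above. Both left-out ratios were below 1 in 75.8%, 65.6% and 70.6% of chosen regions, against 40.7%, 36.6% and 38.1% of all regions with the required count. Both were at most 0.7 in 35.1%, 17.5% and 24.7%, against 10.1%, 5.20% and 6.87%. A single library per time carries counting error on its own, so these shares describe sets and do not sort single regions.

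By position, members lay near gene ends more often than all regions with the required count, and outside genes less often. The larger set includes the members and was not matched to them on count. Its median mean count was 62.3 reads, against 44.8 for members. Of the 809, 408 (50.4%) were centred no more than 1 kb from the end of a gene, 293 (36.2%) were inside one and 108 (13.3%) were outside. The shares were 36.1%, 33.2% and 30.6% over the 32891 regions. The 947 regions that dip at 15 min and recover had 46.8%, 34.7% and 18.5%, and the 1003 regions up at both times had 7.18%, 34.1% and 58.7%. Read the other way, 3.43% of regions at gene ends, 2.68% of those inside genes and 1.07% of those outside genes were members. These shares are descriptions without a test, and the regions of a gene are not independent of each other.

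**Figure D3:**
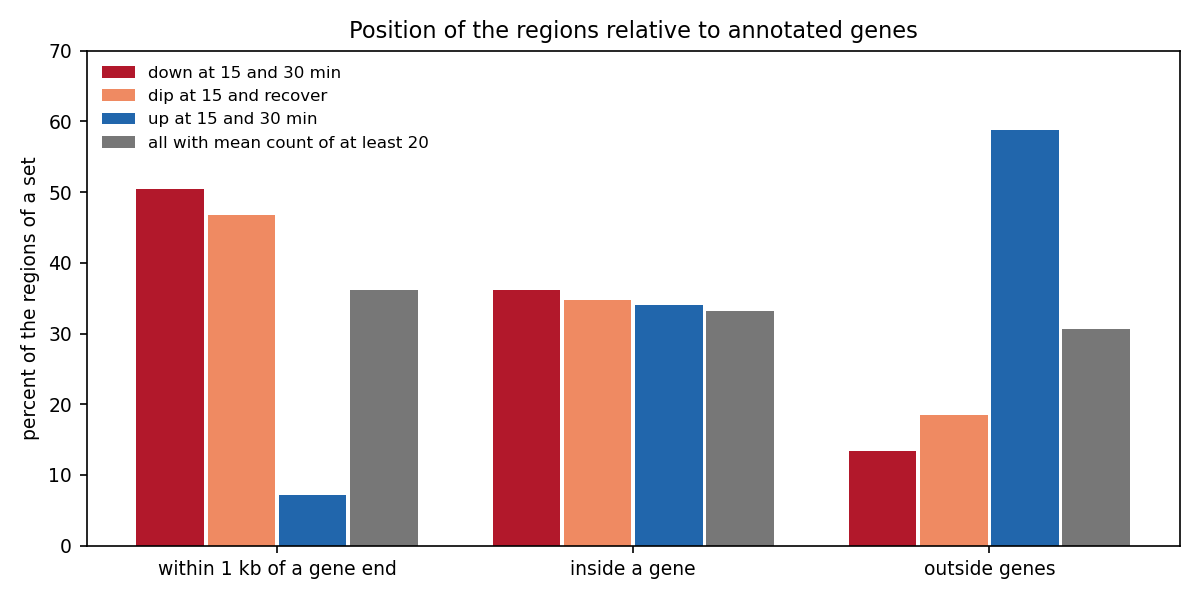
Percent of the regions of each set centred no more than 1 kb from the end of a gene, inside one or outside, for the regions down at both times, those that dip and recover, those up at both times and all regions with a mean count of at least 20. Gene ends hold 50.4% of the regions down at both times and 7.18% of those up at both times.

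The share of all region reads that fell at gene ends moved the same way, and its part in the result was not tested. It was 49.3%, 46.4% and 47.4% at 0 min, 45%, 42.6% and 47.2% at 15 min, and 44.4%, 45.8% and 45.4% at 30 min. When libraries were instead scaled to the regions at gene ends, the members' mean ratios had medians of 0.649 at 15 min and 0.667 at 30 min, beside 1.1 and 1.06 over all regions with the required count. That scaling left 342 regions that met the conditions, of which 328 were among the 809, and 50% of the 342 were at gene ends.

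Within 1 kb of a start site lay 42.8% of members, against 29.9% of all regions with the required count, 36.3% of those that dip and recover and 4.25% of those up at both times. Of the 338 members near start sites 189 had their centre downstream of it (55.9%), against 50.3% of all 9545 such regions with the required count and 60.4% of those that dip and recover. Members inside genes lay closer to the gene's start and in shorter genes than all such regions. Their median distance from the start was 7.73 kb in genes of a median 31.1 kb, against 17.4 kb and 53.7 kb for all regions inside genes with the required count and a known strand. Regions that dip and recover lay closer still, at 5.34 kb in genes of 28.8 kb. The authors' regions were a median of 732 bp wide for members and 742 bp for all, and 15.9% and 16.6% of windows overlapped another.

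In all, 701 members lay at or in a gene, of which 634 were protein coding and 67 long non-coding. They named 637 genes, and 63 genes held more than 1 member, together 127 members. Another member lay within 5 kb of 132 members (16.3%). Chromosome 11 held 101 members, or 3.88% of its regions with the required count, beside 2.46% genome-wide. The X chromosome, which carries Firre, held 7 members, or 0.645% of its 1086 regions.

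Regions that are not members but lie close to one were followed as a description. They are the regions that the conditions left over, in the same libraries, so they are not independent of the selection, which took 473 of the 2148 regions that edgeR called lower at 15 min. Of 736 tested regions within 5 kb of a member whose windows did not overlap it, edgeR called 98 lower at 15 min (13.3%) and 2 higher. Of 1945 tested regions in a gene that has a member, it called 143 lower (7.35%) and 22 higher (1.13%). Among all tested regions that are not members 3.13% were called lower and 4.36% higher. The median log2 change was -0.46 for regions within 5 kb and -0.23 for regions of the same gene, against 0.03 for all non-members.

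The neighbours' share was higher within each class of position. At gene ends 17.6% of regions within 5 kb and 14.1% of regions of the same gene were called lower at 15 min, beside 6.46% of non-members there. Inside genes the shares were 13.0% and 5.12%, beside 2.57%, and outside genes 6.54% of regions within 5 kb, beside 1.17%. With distance the share at 15 min went down, being 14.3% from 0.6 to 2 kb, 12.5% from 2 to 5 kb, 6.26% from 5 to 10 kb, 6.24% from 10 to 50 kb and 2.73% beyond 50 kb.

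At 30 min few neighbours were called. The conditions had taken 162 of the 270 regions called lower at that time as members, and the part of this in the low count was not tested. Of the regions within 5 kb 9 were lower (1.22%) and 1 higher (0.136%). Of those in the same gene 12 were lower (0.617%) and 7 higher (0.360%). Among non-members 0.202% were lower, while 675 of 53490 were higher. The share called lower had no steady order with distance. It was 0.305% from 0.6 to 2 kb (1 region), 1.96% from 2 to 5 kb (8 regions) and 2.09% from 5 to 10 kb (11 regions). It was 0.561% from 10 to 50 kb and 0.143% beyond 50 kb. By position the background of lower calls was 0.240% at gene ends, 0.248% inside genes and 0.126% outside genes. The median log2 changes were -0.35 and -0.22, beside 0.01. Both comparisons use the same 0 min libraries, so they are not independent of each other.

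The counts depend on single libraries and on the scaling. At 15 min the 143 and 98 became 69 and 47 without the first 0 min library, 83 and 67 without the third, 53 and 39 without the first 15 min library and 66 and 51 without the second. They became 64 and 49 with gene-end scaling, under which 81.0% of all called regions (4136 of 5104) were higher, in place of 52.0% (2331 of 4479). Under that scaling 46 regions of the same gene and 3 within 5 kb were called higher, in place of 22 and 2. In each of these settings the neighbours' shares of lower calls stayed above the share of non-members called lower.

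**Figure D4:**
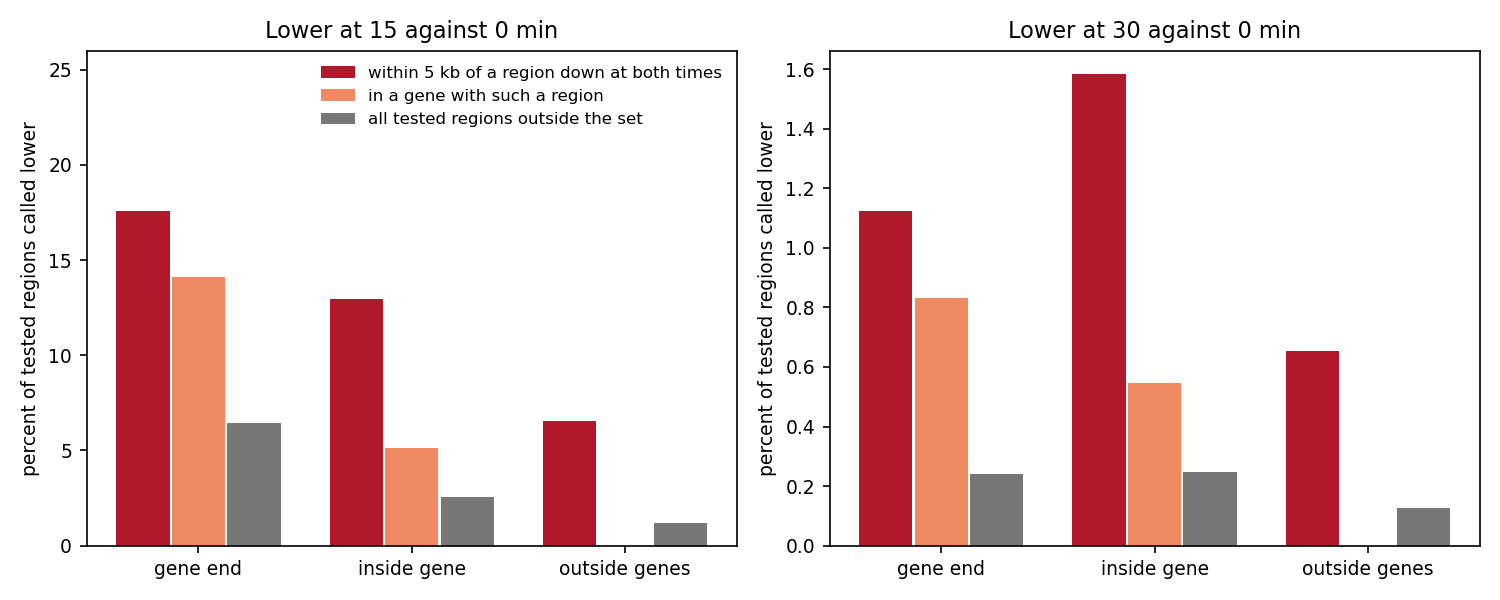
Percent of tested regions that edgeR called lower at 15 min (left) and 30 min (right) against 0 min, for regions within 5 kb of a region down at both times, regions in a gene with such a region, and all tested regions outside the set, by position. The axes differ, since at most 1.58% were called in any class at 30 min while 17.6% of regions within 5 kb were called at gene ends at 15 min.

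The 8 neighbours with the smallest p at 15 min went both ways, with 5 lower and 3 higher. Chid1, which encodes a chitinase domain protein, had a neighbour inside the gene (chr7:141535465-141536064) 40.8 kb from the member. It had 49.5, 48.3 and 53.8 CPM at 0 min, 16.4, 17.9 and 25.2 CPM at 15 min, and 60.0, 44.9 and 45.6 CPM at 30 min. It fell at 15 min by 1.33 on the log2 scale (SE 0.17, edgeR adjusted p = 1.3e-05). Its 30 min libraries lay on both sides of the range of the controls, with a log2 change of 0.0077 (SE 0.16, edgeR adjusted p = 0.99).

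Rab3a, a small GTPase of vesicle release, had a neighbour at its gene end (chr8:70757815-70758414) with 132, 148 and 115 CPM at 0 min, 66.0, 80.0 and 68.2 CPM at 15 min, and 98.7, 94.7 and 90.9 CPM at 30 min. Its log2 change was -0.86 at 15 min (SE 0.12, edgeR adjusted p = 4.3e-05) and -0.46 at 30 min (SE 0.12, adjusted p = 0.038). Hmg20b, a subunit of a histone demethylase complex, had one inside the gene (chr10:81348503-81349102) with 54.0, 54.4 and 53 CPM at 0 min, 21.1, 24.9 and 25.5 CPM at 15 min, and 42.8, 32.8 and 26.2 CPM at 30 min. Its log2 change was -1.15 at 15 min (SE 0.16, edgeR adjusted p = 4.7e-05) and -0.64 at 30 min (SE 0.16, adjusted p = 0.030). In both genes every later library lay below every control, and both 30 min calls were lost without any 1 of 5 of the 9 libraries.

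Iffo2, of the intermediate filament family, fell by 0.93 at 15 min on the log2 scale (SE 0.14, edgeR adjusted p = 0.00014), with means of 69.4 ± 8.67, 36.0 ± 5.11 and 49.1 ± 4.42 CPM at 0, 15 and 30 min (chr4:139615695-139616294). Atp5d, a subunit of mitochondrial ATP synthase, fell by 0.67 (SE 0.11, edgeR adjusted p = 0.00041), with means of 130 ± 12.4, 80.3 ± 3.39 and 107 ± 5.48 CPM (chr10:80141836-80142435). Neither passed the test at 30 min, with adjusted p = 0.068 for Iffo2 and 0.23 for Atp5d.

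The other three of the 8 were higher at 15 min. Pard6g, a cell polarity gene, had a region 68.7 kb from its member with 14.1, 15.6 and 16.5 CPM at 0 min, 29.8, 39.3 and 30.4 CPM at 15 min, and 13.0, 16.7 and 13.8 CPM at 30 min. It rose by 1.14 on the log2 scale (SE 0.18, edgeR adjusted p = 0.00022). Fam78a rose by 1.04 (SE 0.17, edgeR adjusted p = 0.00039), with means of 19 ± 3.45, 38.0 ± 3.62 and 22.3 ± 2.99 CPM at 0, 15 and 30 min. A region outside genes near Zap70, a kinase of T cell signalling, rose by 2.24 (SE 0.37, edgeR adjusted p = 0.00037), with means of 2.44 ± 0.557, 11.3 ± 3.14 and 4.49 ± 2.92 CPM. None of these 3 passed the test at 30 min, and none of the 8 lost its 15 min call without any single library. At 30 against 15 min edgeR called Pard6g, Fam78a and the region near Zap70 lower and Chid1 higher, beside 0.490% lower and 0.214% higher of all tested regions, and the 8 had been chosen by their 15 min values.

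To set the members in their pathways, 27 gene lists with 383 genes were followed. Of the 277 listed genes with a region of the required count 20 (7.22%) had a member, beside 5.11% of all 15001 such annotated genes. The lists with members were hypoxia and glycolysis (Ankrd37, Bhlhe40 and Bnip3 of 18 genes with such a region), cytoskeleton and nuclear lamina (Lmna, Myh14 and Plec of 12), LIF-STAT3 targets (Socs3 and Stat3 of 11), plexins and semaphorins (Plxnb1 and Sema3f of 10) and the Notch pathway (Lfng and Nrarp of 9). A single gene with a member stood in each of the Polycomb, BMP and TGF-beta, integrated stress response, clock, formative pluripotency, neuroectoderm, trophectoderm, YAP and SRF, and kinesin lists.

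The 13 lists without a member were core and naive pluripotency (15 genes with such a region), cytosolic ribosomal proteins (17), immediate early genes (19), p53 and growth arrest (15), cholesterol synthesis (14), heat shock (12), FGF-ERK feedback (11), Firre contact and binding genes (9), WNT targets (7), primitive endoderm (4), mesoderm (2), feeder fibroblasts (1) and the two-cell-like state, which had none. The counts per list are small and are given as a description.

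At gene ends, taking each gene's region of highest count and leaving out members, 19 of 252 tested list genes were called lower at 15 min (7.54%) and 9 higher (3.57%), beside 7.41% and 2.04% of all 13323 such regions. At 30 min 3 were lower and 3 higher (1.19% each), beside 0.300% and 0.518%. The share of lower calls was thus close to that of all genes at 15 min and above it at 30 min, where it rests on 3 genes. Over all gene-end regions so chosen, members included, the median log2 change was -0.15 at 15 min and -0.11 at 30 min.

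Some lists with members also held called genes that were not members. In the LIF-STAT3 list, Bcl3, a co-regulator of NF-kB, fell by 0.66 at 15 min on the log2 scale (SE 0.11, edgeR adjusted p = 0.00048), with 221 ± 24.3, 137 ± 16.0 and 171 ± 9.21 CPM at 0, 15 and 30 min. In the lamina list, Sun2, which links the nuclear envelope to the cytoskeleton, fell by 1.21 (SE 0.25, edgeR adjusted p = 0.0035), with 16.0 ± 2.65, 6.75 ± 1.28 and 9.84 ± 3.39 CPM. In the Polycomb list, Cbx8, a neighbour of Cbx2 in the chromobox cluster, fell by 1.70 (SE 0.33, edgeR adjusted p = 0.0018), with 9.98 ± 4.23, 3.01 ± 0.701 and 5.85 ± 1.47 CPM. None of the 3 passed the test at 30 min, with adjusted p = 0.10, 0.15 and 0.22.

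The clock repressor Nr1d1 fell by 0.60 at 15 min on the log2 scale (SE 0.13, edgeR adjusted p = 0.0048), and the kinesin Kif3c by 1.66 (SE 0.33, edgeR adjusted p = 0.0020). In the BMP list the direction was mixed. Id3, a BMP-induced inhibitor of helix-loop-helix factors, rose by 1.03 at 15 min (SE 0.14, edgeR adjusted p = 4.0e-05) and by 1.13 at 30 min (adjusted p = 5.4e-05), while Smad6 of the same list supplied 2 members.

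Gadd45b, a stress and growth arrest gene singled out after its values were seen, shows how the conditions divide 1 locus. A region 4381 bp outside the gene (chr10:80925411-80926010) was a member, with 12, 10.6 and 9.18 CPM at 0 min, 3.34, 4.56 and 4.48 CPM at 15 min, and 4.82, 5.75 and 3.27 CPM at 30 min. The gene-end region had 226 ± 22.0, 97.1 ± 10.6 and 137 ± 16.4 CPM at 0, 15 and 30 min. It fell at both times (log2 change -1.19, SE 0.12, edgeR adjusted p = 3.2e-07 at 15 min and -0.71, adjusted p = 0.0018 at 30 min) and kept both calls without any single library. It was not a member because its 30 min mean exceeded 1.4 times its 15 min mean.

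Promoters of members were richer in G+C than others. Over the 300-base promoters the median G+C share was 65.8% at the 338 members near start sites, against 62.0% at all 9545 regions with the required count near start sites and 52.7% over all 32851 promoters in the RefSeq table. The median number of CpG was 23, 22 and 7. At regions that dip and recover the median G+C share was 62.7%, and at the 41 regions up at both times near start sites it was 50.3%. Divided into 3 classes of about equal size by G+C, 1.9% of the low class, 3.48% of the middle class and 5.27% of the high class of the 9545 were members.

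**Figure D5:**
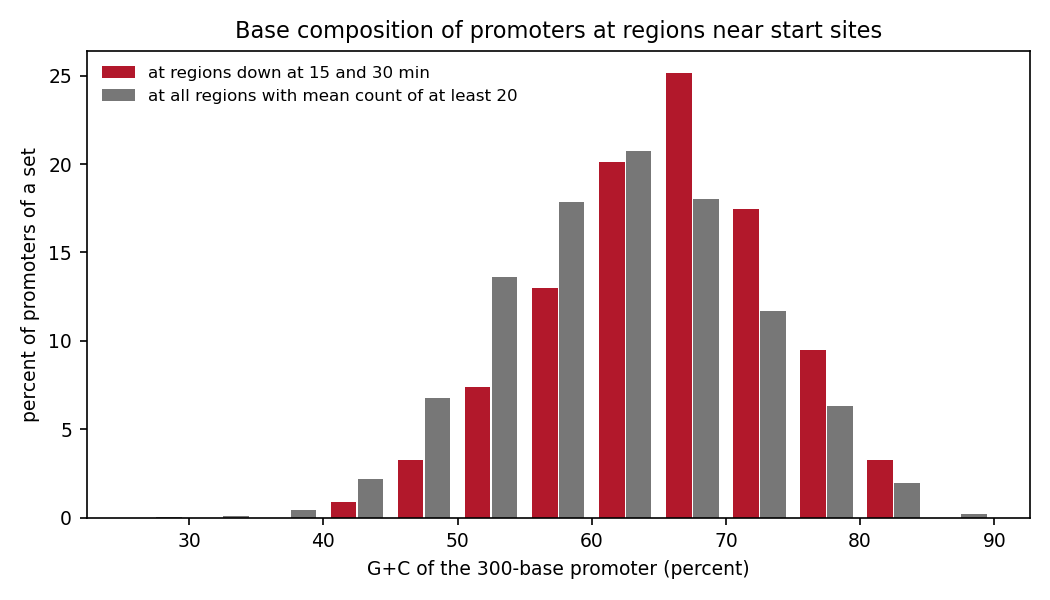
Percent of promoters by G+C share, in steps of 5%, for promoters at regions down at 15 and 30 min and at all regions with a mean count of at least 20. Promoters of the regions down at both times are shifted to the right, with medians of 65.8% and 62.0%.

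The ratio to 0 min also differed by class among the regions of the 9545 that are not members. Its median was 0.932, 0.885 and 0.828 at 15 min in the low, middle and high class, and 0.957, 0.921 and 0.881 at 30 min. The share of all region reads in the high class was 12.7%, 10.8% and 11.9% at 0 min, 10.1%, 9.34% and 11.7% at 15 min, and 10.5%, 11.1% and 10.8% at 30 min, so single libraries of different times overlapped. The part of base composition in the members' ratios was not tested.

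The 10 motifs were searched on both strands and are spelled beside their shares. No motif contains another, but matches may share bases. The GC box, which binds factors of the Sp family, was searched as GGGCGG and was in 79.9% of member promoters, against 67.8% of those at all regions with the required count and 35.7% of all promoters in the table. Within the low, middle and high G+C class the shares were 41.0%, 83.8% and 91.6% for members, against 38.6%, 74.4% and 90.8%, with the widest gap in the middle class.

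The ETS site, searched as CCGGAAG, was less frequent at members, in the promoters of 24 of 338 regions (7.10%), against 18.8% at all regions with the required count and 8.86% of all promoters. It stayed less frequent in each class, at 6.56%, 8.11% and 6.63% against 18.7%, 21.9% and 15.7%. The YY1 site, searched as AAGATGGCG, was in the promoters of 0 of 338 members, against 302 of 9545 regions (3.16%) and 1.4% of all promoters. At regions that dip and recover the ETS site was in 10.4% and the YY1 site in 1.18%.

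The other 7 motifs differed by less than 3 percentage points between members and all regions with the required count. The CCAAT box, searched as those letters, was in 38.5% against 40.1% (37.4% of all promoters), and the E-box, searched as CACGTG, in 9.76% against 10.6% (7.15%). The cyclic AMP response element, searched as TGACGTCA, was in 2.66% against 3.30% (1.79%), and the NRF1 site, searched as GCGCATGC, in 5.62% against 6.09% (2.71%). The AP-1 site, searched as TGANTCA, was in 3.25% against 4.0% (7.81%). Within the low, middle and high G+C class it was in 6.56%, 3.60% and 1.81% of member promoters, against 5.96%, 3.73% and 2.28%. The STAT site, searched as TTCNNNGAA, was in 4.73% against 6.47% (8.30%), and by class in 9.84%, 3.60% and 3.61%, against 9.90%, 6.36% and 3.11%. Neither differed one way in every class. The TATA box, searched as TATAAA, was in 4.14% against 6.33% (13.6%), and by class in 9.84%, 4.50% and 1.81%, against 11.9%, 4.83% and 2.19%. A match to such short letters is not evidence of a bound factor.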

How the data were processed

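PRO-seq read counts of 9 libraries were used, and the titles in the count table matched the sample labels for all 9. The deposited table holds raw counts of reads per region and library, which the authors made with HISAT2 and featureCounts on mm10, per the submitters' processing notes, which also name DESeq2 1.26.0. Settings and the strand counted are not given in the sources used here. The authors' deposited region lists hold other values: coordinates of every region and of its 600 bp counting window, shared by all libraries.

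The conditions were applied to CPM over all regions. The members, gene lists and comparisons were chosen with earlier results of these data known. The test was edgeR's quasi-likelihood test (edgeR 4.0.16, limma 3.58.1, R 4.3.3) on the counts of all 9 libraries with time as a factor, edgeR's default expression filter (54299 regions tested, 119990 removed) and TMM factors. Calls were made at 0.05 after Benjamini-Hochberg adjustment across the tested regions. The biological coefficient of variation was 15.1%. SEs of log2 changes were derived from the change and its F statistic. Means and per-library values are plain CPM. With 3 libraries per time, the tests rest on library-to-library spread alone.

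Regions were placed with 35099 genes of the RefSeq table of GRCm38.p6 and with 32851 RefSeq promoters, which do not cover chromosome 18 (Python 3.11.15, pandas 2.3.3). Gene-end regions are those centred no more than 1 kb from either end of a gene. Genes named are the 12 members of lowest mean ratio, the 12 of highest 0 min CPM, members in a gene of the 27 lists, genes with 3 members, the 3 regions on each side of the 0.7 limit, and the 8 neighbours of smallest p at 15 min. List genes that are not members were named from the called ones. Replicate numbers were not used to pair the libraries in the main test, and whether they mark a pairing is not known. Same-numbered libraries correlated between -0.09 and 0.31 in their deviations from the group means, and other-numbered ones between -0.33 and 0.19. Alternatives were other scalings (DESeq2 1.42.0 size factors, TMM over gene ends, library size alone), other limits, filters, samples and tests, the replicate number as a block, and each library left out in turn. The procedures were tested on simulated data. Some genes that the naming rule takes in are not reported here.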

Additional observations from a re-analysis of the deposited data

Results flagged for a closer look

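Among the 8 neighbours with the smallest p at 15 min, edgeR also called the step between the later times in 4. The 8 were chosen by their 15 min values, which enter that step too, so the choice favours a step back towards the 0 min level. Of all tested regions 0.490% were called lower and 0.214% higher at 30 against 15 min. The Chid1 region was higher at 30 than at 15 min by 1.34 on the log2 scale (SE 0.17, adjusted p = 5.2e-05), with means of 50.1 ± 8.56 CPM at 30 min and 19.8 ± 4.74 CPM at 15 min (SD, n = 3 each). The Pard6g region had a log2 change of -1.20 at 30 against 15 min (SE 0.18, edgeR adjusted p = 0.00042), with 14.5 ± 1.95 CPM at 30 min and 33.2 ± 5.34 CPM at 15 min. The region near Zap70 had a log2 change of -1.40 (SE 0.33, edgeR adjusted p = 0.042), with 4.49 ± 2.92 CPM at 30 min and 11.3 ± 3.14 CPM at 15 min. The Fam78a region had a log2 change of -0.78 (SE 0.17, edgeR adjusted p = 0.020), with 22.3 ± 2.99 CPM at 30 min and 38.0 ± 3.62 CPM at 15 min. By the definition of a neighbour, all 4 lie in the same gene as, or within 5 kb of, a region that stayed down at both times.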

How the results depend on the processing

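The number of regions meeting the conditions was 809 in the stated form. It was 711 with TMM factors, 786 with DESeq2 size factors, 1154 at a mean count of 10, and 680 without overlapping windows. It was 264 at a ratio limit of 0.6, 1618 at 0.8 and 357 at a mean count of 50, where the limit itself sets how many qualify. With the limits unchanged it was 342 with TMM over gene ends and 797 to 1694 without 1 library. Same-gene neighbours called lower at 15 min were 143, or 64 with gene-end TMM and 53 to 204 without 1 library. Those within 5 kb were 98, or 49 and 39 to 141. At 30 min the same-gene count was 12, or 3 with gene-end TMM, 26 with no filter, 28 with only the 2 groups and 2 to 32 without 1 library. The count within 5 kb was 9, or 2, 17, 17 and 1 to 18. With gene-end TMM more same-gene neighbours were called higher (10) than lower (3) at 30 min, while in the stated form 7 were higher and 12 lower. Regions called in all were 4479 at 15 min (2123 to 6412 without 1 library) and 945 at 30 min (171 to 1510). With gene-end TMM the higher share of calls at 30 min was 89.3%, in place of 71.4%. With the replicate number as a block, the conditions chose 1085 regions, the same-gene counts were 159 and 16, those within 5 kb 108 and 10, and the regions called 4804 and 1107, so no count moved past 1.5 times. The best match of a library had its own replicate number in 7 of 18 cases. The shares of neighbours called lower exceeded the share of non-members at both times in every setting listed here for them. At 30 min some rest on 1 region, as within 5 kb without the first 0 min library (0.133% against 0.0482%). These shares were not split by position. The mean left-out medians at 15 and 30 min were 0.688 and 0.780, or 0.693 and 0.785 with TMM, and 0.690 and 0.782 with a pseudocount of 0.5 counts. Low counts limit single regions, since 307 members had under 10 CPM at 0 min. The cause of the other changes was not tested.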
